A study of Homo sapiens with 72 samples.

Results

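The 10 genes described here are EGR1, EGR2, EGR3, IER2, IER3, IER5, NR4A1, KLF6, ZFP36 and MYC. They were chosen by name as early response genes, with earlier results of these data known, from the 56268 genes matched in the files. All 10 were among the 20131 genes that passed the filter on low counts. They were measured in PEO1, an established line of high-grade serous ovarian cancer cells, by sequencing poly(A) RNA with strand-specific libraries. RucHigh and RucLow are cells given the PARP inhibitor rucaparib at 8.5 µM for 2 or 24 h, then sorted by its fluorescence. RucHigh is the brightest 20% and RucLow the dimmest 20%, gates that the study's sorting methods set within rucaparib-positive cells. RucTotal cells had the same exposure and were not sorted, and Vehicle cells had DMSO for 2 or 24 h and were not sorted. Each of the 8 groups had 3 replicates with 3 libraries each, and the libraries of a replicate were added, which gave 24 samples. RucTotal and Vehicle cells were lysed where they grew, by scraping. For its sorting in general the study states that cells were lifted with an enzyme, strained and held on ice, without naming these libraries. No Vehicle cells were sorted, and lifting, time in suspension and the sorter itself cannot be told apart, so "sorting" stands below for the whole of this handling.

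Early response genes are transcribed soon after a cell meets a growth factor or a stress, without need for new protein, and their mRNAs are usually short-lived. Many of them are switched on through serum response factor, which binds a DNA motif called the CArG box together with cofactors of the ETS family or of the actin-regulated MRTF family. Several of the proteins are transcription factors themselves, and others, such as ZFP36, which binds AU-rich elements and speeds the decay of the mRNAs that carry them, close the response again.

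Each library held 17391033 to 38899905 estimated reads. The 3 libraries of a replicate differed by more than counting noise (chi-square per degree of freedom of 5.86 to 361 over 72 pairs, median 30.9), and the labels do not say whether they are separate wells or libraries of 1 RNA. The 2 libraries with the fewest reads (17391033 and 22092472) also had the most genes detected, 32200 in library 2 of replicate 2 of RucLow at 2 h, where mitochondrial genes took 0.387% of the reads against 2.54 and 4.36% in the other libraries of that replicate, and 26761 in library 1 of replicate 1 of Vehicle at 2 h. The lowest EGR1 level of any library of RucLow at 2 h was 366 CPM. Without these 2 libraries the 10 genes gave the same counts of calls in the comparisons refitted, except that EGR3 was also called with sorting at 2 h (adjusted p = 0.043). The markers of ovarian epithelial and serous cells were expressed, with a median of at least 1 CPM (reads scaled to the library total) for 11 of 11 genes and summed levels of 7807 to 18906 CPM over the libraries. Of the leukocyte markers 2 of 8 reached that level (CD68 and CD14), with sums of 14.6 to 34.1 CPM, and 1 of 4 endothelial markers did (CDH5). The fibroblast markers had 1 of 6 genes at that level, COL1A1, with sums of 3.55 to 50.97 CPM, and the defining genes PTPRC, CD3E, DCN, LUM and PECAM1 had medians of 0 CPM.

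The EGR genes encode zinc finger transcription factors. EGR1 lies on chromosome 5 (138465490 to 138469315, plus strand, GRCh38) and had 1 transcript among those matched to genes, a protein-coding one. EGR2 lies on chromosome 10 (62811996 to 62919900, minus strand). Of the 10 genes, 7 had a RefSeq promoter window (GRCh38.p14, 10 windows in all), of which the 250 bases before the start were searched on both strands for the CArG box, for TGACGTCA, the cAMP response element, for GCGTGGGCG, a site of EGR proteins, for CCGGAA, an ETS site, and for TATAAA, a core promoter box. The CArG box was in 2 of the 10 windows, those of EGR1 and EGR2, and in 1.16% of the 35116 windows of all genes. The window of EGR1 (chr5:138465229-138465478, plus strand) held it at 105 to 96 and at 83 to 74 bases before the start, and that of EGR2 (chr10:62816367-62816616, minus strand) at 71 to 62 bases before the start. It is 1 of 3 windows of EGR2, and the other 2 held no box. Both windows are shown 5′ to 3′ because these genes changed most with sorting, with the CArG boxes in capitals.
EGR1: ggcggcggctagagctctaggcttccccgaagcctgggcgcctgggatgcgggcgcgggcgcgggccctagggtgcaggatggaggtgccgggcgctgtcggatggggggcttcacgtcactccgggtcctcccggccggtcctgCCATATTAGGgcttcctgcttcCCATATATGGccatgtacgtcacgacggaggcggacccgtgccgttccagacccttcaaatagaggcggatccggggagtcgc
EGR2: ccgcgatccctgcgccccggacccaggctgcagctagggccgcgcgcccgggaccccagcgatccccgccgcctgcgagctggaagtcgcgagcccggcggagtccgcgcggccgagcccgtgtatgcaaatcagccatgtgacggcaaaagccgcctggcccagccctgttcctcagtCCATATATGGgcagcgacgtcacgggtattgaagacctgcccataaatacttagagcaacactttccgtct
The second box of EGR1 and that of EGR2 have the same letters, CCATATATGG. No window of the 10 held TGACGTCA, which 1.65% of all windows held, and 3 of the 10 held CCGGAA (IER2, IER5 and NR4A1), against 14.5% of all windows. None of the 10 windows held GCGTGGGCG (0.72% of all windows) or TATAAA (10.7%). These are matches of letters, and binding of a factor was not measured.

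The other genes lie, in GRCh38, on chromosome 8 (EGR3, 22687659 to 22693302, minus strand, and MYC, 127735434 to 127741434, plus strand), chromosome 19 (IER2, 13150415 to 13154908, and ZFP36, 39406813 to 39409412, both plus strand), chromosome 6 (IER3, 30743199 to 30744554, minus strand), chromosome 1 (IER5, 181088712 to 181092899, plus strand), chromosome 12 (NR4A1, 52022832 to 52059507, plus strand) and chromosome 10 (KLF6, 3775996 to 3785281, minus strand). Of the 6 transcripts of IER3, 4 lie on alternative haplotypes, and the one of these with the most reads took 9.18% of the gene's reads over all samples, with 5.79% in RucTotal at 2 h as the lowest group and 17.4% in Vehicle at 2 h as the highest. The genes covered a wide range of levels. As a mean over the 24 samples in TPM, which corrects for transcript length, IER2, an early gene that encodes a small nuclear protein, was the highest at 157 TPM, followed by KLF6 at 81.6, EGR1 at 69.1, MYC at 55.4, ZFP36 at 30.7, NR4A1 at 15.9, IER5 at 10.3 and IER3 at 3.55 TPM. EGR2 at 0.640 and EGR3 at 0.458 TPM were near the floor, and EGR2 had as few as 54 reads in the 9 libraries of RucTotal at 24 h. All further levels are CPM after TMM scaling, and all differences are log2 fold changes with the standard error (SE) from edgeR's quasi-likelihood fit, and a gene is called where its p, adjusted by Benjamini-Hochberg over all 20131 genes, is under 0.05. Intervals are 95% intervals. Replicates are taken as separate days, as the study states for its sorting experiments in general, although the labels do not say so; if not, p-values measure only the spread between these samples.

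**Figure D1:**
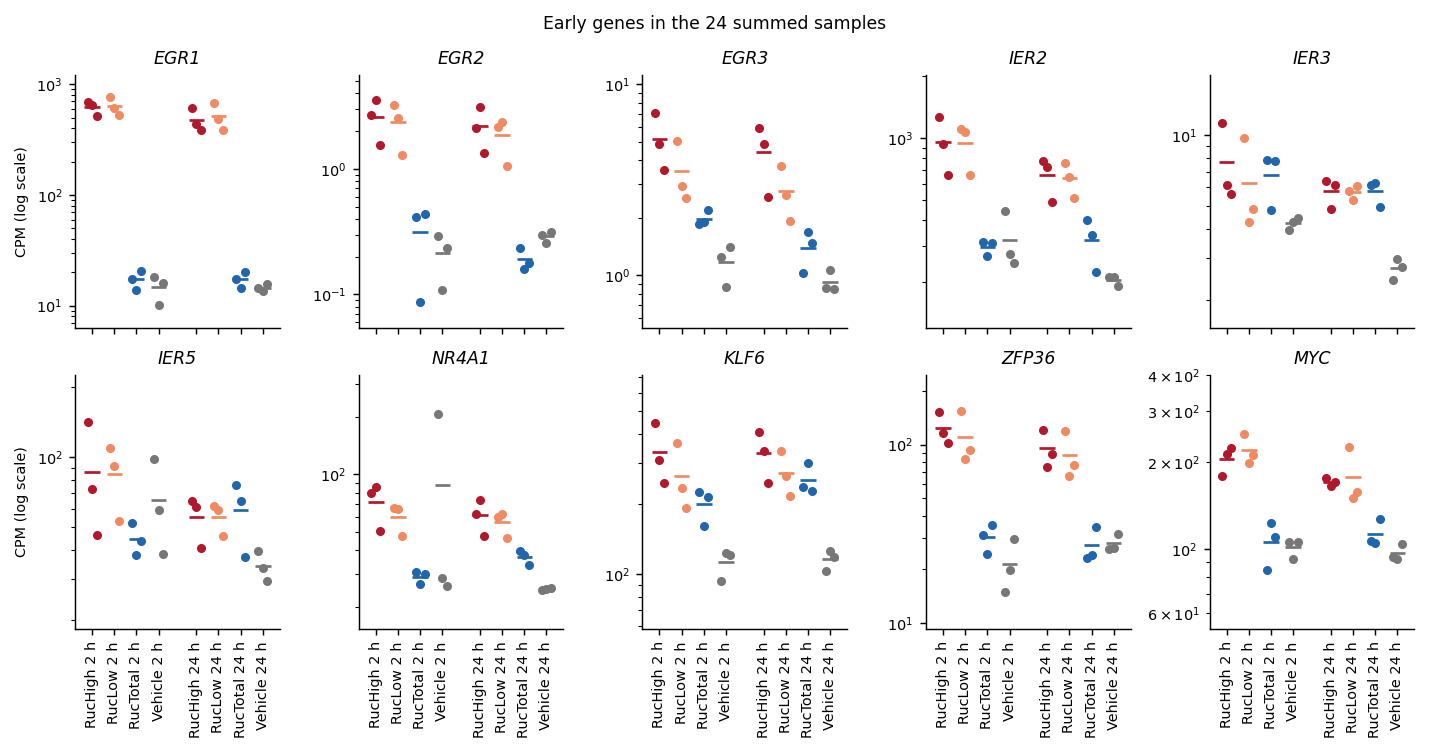
Level of each of the 10 early genes (CPM after TMM scaling, log axis) in the 24 summed samples, by group at 2 h and at 24 h; points are replicates and bars are means of 3. EGR1 lay between 384 and 767 CPM in every sorted sample and between 10.0 and 20.7 CPM in every unsorted sample, and NR4A1 stood at 208 CPM in replicate 1 of Vehicle at 2 h.

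After 2 h of rucaparib, 5 of the 10 genes were higher in sorted than in RucTotal cells and none was lower, whereas 2.41% of all genes were called in either direction. The median over the 10 genes was 1.14 on the log2 scale, against -0.01 over all genes tested. EGR1 stood at 696, 656 and 518 CPM in RucHigh and at 767, 608 and 529 CPM in RucLow, against 17.5, 13.9 and 20.7 CPM in RucTotal. No sorted sample came near an unsorted one, and the mean of RucHigh and RucLow was 36.1-fold higher than RucTotal (log2 5.18 ± 0.27 SE, adjusted p = 1.04e-09). EGR2 stood at 2.71, 3.54 and 1.55 CPM in RucHigh and at 3.22, 2.55 and 1.29 CPM in RucLow, against 0.414, 0.0865 and 0.439 CPM in RucTotal (log2 2.97 ± 0.49, adjusted p = 0.0059). Its sorted and RucTotal samples did not overlap either, although the RucTotal values rest on 77 reads in 9 libraries.

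ZFP36 at 2 h spanned 83.2 to 153 CPM over the 6 sorted samples (median 109), against 31.3, 24.4 and 35.6 CPM in RucTotal (log2 1.94 ± 0.27, adjusted p = 0.0016). IER2 spanned 659 to 1274 CPM over the sorted samples (median 1007), against 315, 267 and 310 CPM in RucTotal (log2 1.68 ± 0.25, adjusted p = 0.0026). MYC, the transcription factor that drives growth and ribosome production, spanned 179 to 250 CPM over the sorted samples (median 212), against 84.9, 123 and 110 CPM in RucTotal (log2 1.01 ± 0.14, adjusted p = 0.0014). In these 3 genes too every sorted sample was above every RucTotal sample, and so it was in EGR3 and NR4A1, which were not called. The share of all genes whose groups separate in this way, here or in later comparisons, was not counted. The call of EGR2 was lost with a correction for effective transcript length (adjusted p = 0.10), on log2(TPM + 1) with limma (0.080) and without replicate 1 (0.058), and that of MYC without replicate 3 (0.098).

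The other 5 genes did not pass the test at 2 h. EGR3 spanned 2.54 to 7.04 CPM over the sorted samples, against 1.86 to 2.18 CPM in RucTotal (log2 1.10 ± 0.30, adjusted p = 0.056). IER5, a gene of early response and of heat shock factor regulation, had a log2 difference of 0.94 ± 0.34 (adjusted p = 0.13). The replicate number was also fitted as a block, which is taken to stand for the day although the labels name no day. With it 7 of the 10 genes were called, EGR3 (adjusted p = 0.016) and IER5 (adjusted p = 0.0075) being added, beside 14.9% of all genes. DESeq2 called 8, these 7 and NR4A1, beside 6.75% of all genes. NR4A1, an orphan nuclear receptor, spanned 47.7 to 85.5 CPM over the sorted samples, against 26.5 to 30.7 CPM in RucTotal, and its log2 difference of 1.18 ± 0.45 had an adjusted p of 0.17. That p was 0.0013 when replicate 1 of Vehicle at 2 h, an outlying sample outside this comparison, was left out of the shared fit, an alternative chosen after the data were seen. It was also under 0.05 with only the groups compared (0.023), without replicate 1 (0.042), with transcript length as a covariate beside the block (0.047) and with DESeq2 (0.049), and it was 0.65 without replicate 2 and 0.27 without replicate 3. KLF6, a zinc finger factor, gave 0.57 ± 0.22 (adjusted p = 0.17). IER3, which encodes a small regulator of survival signalling, gave 0.03 ± 0.24, with a 95% interval of -0.47 to 0.54.

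At 24 h 6 of the 10 genes were higher in sorted than in RucTotal cells and none was lower, whereas 9.46% of all genes were called. The median over the 10 genes was 0.84, against 0.01 over all genes tested. EGR1 stood at 615, 439 and 384 CPM in RucHigh and at 674, 489 and 388 CPM in RucLow, against 17.3, 14.4 and 20.1 CPM in RucTotal, a 28.8-fold difference (log2 4.85 ± 0.27, adjusted p = 2.45e-09). EGR2 stood at 2.11, 3.13 and 1.34 CPM in RucHigh and at 2.14, 2.37 and 1.06 CPM in RucLow, against 0.237, 0.159 and 0.179 CPM in RucTotal (log2 3.39 ± 0.50, adjusted p = 0.00075). All sorted samples were again above all RucTotal samples in both genes. ZFP36 differed by 1.74 ± 0.26 (67.03 to 122 CPM sorted, against 23.1 to 34.6 CPM in RucTotal, adjusted p = 0.00079). EGR3 differed by 1.33 ± 0.30 (1.92 to 5.91 CPM sorted, against 1.02 to 1.69 CPM in RucTotal, adjusted p = 0.013). IER2 differed by 1.02 ± 0.24 (490 to 775 CPM sorted, against 223 to 399 CPM in RucTotal, adjusted p = 0.016) and MYC by 0.63 ± 0.13 (150 to 225 CPM sorted, against 105 to 127 CPM in RucTotal, adjusted p = 0.0090). With only the sorted and RucTotal groups of 24 h in the fit, EGR3 (adjusted p = 0.073), IER2 (0.058) and MYC (0.066) were not called, and without replicate 1 EGR3 (0.17) and IER2 (0.064) were not.

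NR4A1 at 24 h stood at 46.5 to 73.4 CPM in the sorted samples, against 33.4 to 39.7 CPM in RucTotal, without passing the test (log2 0.67 ± 0.44, adjusted p = 0.36, or 0.015 without replicate 1 of Vehicle at 2 h). KLF6 (0.24 ± 0.22), IER3 (-0.01 ± 0.24) and IER5 (-0.09 ± 0.32) had intervals that reached 0.69, 0.49 and 0.58 at their upper ends. The difference between sorted and RucTotal cells was itself compared between times, and no gene of the 10 was called, as in 0% of all genes (1 of the 10 and 5.46% of all genes had an unadjusted p under 0.05, and DESeq2 called 0 of the 10 and 0.0348% of all genes). EGR1 changed with sorting by 0.33 ± 0.29 less at 24 h than at 2 h (log2 -0.33, adjusted p = 0.81), and the largest shift in size was that of IER5, at -1.03 ± 0.46 (adjusted p = 0.81).

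Without replicate 2 only EGR1 of the genes described here stayed past the threshold at either time. Its adjusted p was 0.000298 at 2 h and 0.000436 at 24 h. Of all 20248 genes tested, that fit called only 2 at 2 h and 5 at 24 h. With all samples 485 and 1905 of 20131 genes were called. In the fit without replicate 2 the other genes described and called with all samples kept positive log2 differences. These lay between 0.66 (MYC) and 3.02 (EGR2), both at 24 h. In the samples, the share of reads on mitochondrial genes also differed with sorting, at 2.20 to 3.92% in sorted, 0.959 to 1.39% in RucTotal and 0.395 to 0.989% in Vehicle samples at 2 h. At 24 h it was 1.90 to 5.10% in sorted, 0.402 to 0.592% in RucTotal and 0.746 to 1.67% in Vehicle samples. Both fibroblast markers that passed the filter, of 6 in the list, were also higher with sorting at 2 h in 3 of 3 replicates, short of the threshold. COL1A1 was at 8.81 to 14.9 CPM in sorted, against 6.03 to 7.02 CPM in RucTotal samples (log2 0.85 ± 0.39, adjusted p = 0.25), and COL1A2 averaged 0.253 CPM in sorted and 0.102 CPM in RucTotal samples (1.30 ± 0.56, adjusted p = 0.23). The summed level of the 6 markers was 7.79 to 32.6 CPM over sorted libraries, against 3.55 to 8.23 CPM over RucTotal libraries at 2 h. At 24 h the differences were 0.27 ± 0.38 and 0.06 ± 0.54. The part of the mitochondrial share and of these markers in the differences of the early genes was not tested. In bulk samples fewer cells of a type and less RNA per cell cannot be told apart, nor can a change in all cells and a larger change in some of them.

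Each gate was also set against RucTotal on its own. At 2 h RucHigh differed in EGR1, EGR2, IER2, ZFP36 and MYC, 5 of the 10 genes, beside 0.397% of all genes, and RucLow differed in the same 5 genes, beside 0.556% of all genes. EGR1 was higher by 5.16 ± 0.28 in RucHigh and by 5.19 ± 0.28 in RucLow at 2 h. At 24 h RucHigh differed in 6 genes, these 5 and EGR3 (1.67 ± 0.34, adjusted p = 0.0093), beside 5.74% of all genes, and RucLow in 4 genes, EGR1, EGR2, ZFP36 and MYC, beside 2.54%. IER2 had an adjusted p of 0.055 and EGR3 one of 0.11 in RucLow at 24 h, and with the replicate block these were 0.00072 and 0.047. At 2 h the block added EGR3 in RucHigh (adjusted p = 0.015) and IER5 in RucHigh (0.025) and in RucLow (0.017). It called 15.7% of all genes in RucLow at 24 h, 7.83% in RucHigh at 2 h and 10.7% in RucLow at 2 h.

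Between RucHigh and RucLow, which were handled alike and differed in drug fluorescence, none of the 10 genes was called at 2 h, when 0.00497% of all genes were, nor at 24 h, when 0.109% were. At an unadjusted p under 0.05 the count was also 0 of 10 at each time, beside 3.21% of all genes at 2 h and 4.09% at 24 h, and DESeq2 called 0 at each time, beside 0.243% and 0.378%. The log2 differences lay between -0.10 (MYC) and 0.55 (EGR3) at 2 h and between -0.11 (EGR1) and 0.68 (EGR3) at 24 h. For EGR1 the 95% interval of the difference was -0.51 to 0.46 at 2 h and -0.60 to 0.38 at 24 h. EGR3 was higher in RucHigh than in RucLow in 3 of 3 replicates at each time, at 7.04, 4.85 and 3.55 CPM in RucHigh and 5.07, 2.92 and 2.54 CPM in RucLow at 2 h and at 5.91, 4.85 and 2.57 CPM in RucHigh and 3.75, 2.64 and 1.92 CPM in RucLow at 24 h. Its differences of 0.55 ± 0.33 and 0.68 ± 0.33 both had an adjusted p of 1, and their intervals were -0.13 to 1.24 and -0.01 to 1.37. KLF6 was also higher in RucHigh in 3 of 3 replicates at each time, by 0.34 ± 0.25 and 0.28 ± 0.25, short of the threshold. In its proteomics sorts of this line the study reports that RucHigh cells were also larger and richer in mitotic and lysosomal proteins. The part of cell size and of these proteins in the differences of EGR3 and KLF6 was not tested.

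Rucaparib itself was assessed in unsorted cells, RucTotal against Vehicle. At 2 h none of the 10 genes was called, beside 0.0248% of all genes, while 4 had an unadjusted p under 0.05 (KLF6, NR4A1, IER3 and EGR3), beside 6.54% of all genes, and DESeq2 called 0, beside 0.482%. KLF6 stood at 225, 161 and 215 CPM in RucTotal, against 93.4, 123 and 121 CPM in Vehicle, so the groups did not overlap, and its log2 difference of 0.83 ± 0.25 had an adjusted p of 0.41. IER3 stood at 7.84, 4.79 and 7.75 CPM in RucTotal, against 3.96, 4.29 and 4.43 CPM in Vehicle, also without overlap (0.68 ± 0.28, adjusted p = 0.69). EGR1 stood at 17.5, 13.9 and 20.7 CPM in RucTotal, against 18.1, 10.0 and 16.1 CPM in Vehicle, which overlapped, and its log2 difference of 0.24 ± 0.24 had an interval of -0.26 to 0.73.

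At 24 h 2 of the 10 genes were higher in RucTotal than in Vehicle and none was lower, beside 3.35% of all genes called. KLF6 stood at 238, 299.8 and 227 CPM in RucTotal, against 103, 126 and 118 CPM in Vehicle (2.20-fold, log2 1.14 ± 0.25, adjusted p = 0.020). IER3 stood at 6.15, 6.27 and 4.94 CPM in RucTotal, against 2.42, 2.99 and 2.76 CPM in Vehicle (2.12-fold, log2 1.09 ± 0.28, adjusted p = 0.041). Both were higher in 3 of 3 replicates with no overlap, and neither was called when the fit corrected for effective transcript length (adjusted p = 0.055 and 0.14), held only these 2 groups (0.082 and 0.095), used log2(TPM + 1) with limma (0.065 and 0.28) or left out replicate 2 (0.75 and 0.73). IER3 also missed the threshold without replicate 1 (adjusted p = 0.071) and without replicate 3 (0.059), and with transcript length as a covariate beside the block (0.12).

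With the replicate block 4 of the 10 genes were called at 24 h, beside 24% of all genes, the 2 added being IER2 (0.60 on the log2 scale, adjusted p = 0.014) and IER5 (0.75, adjusted p = 0.017). IER2 stood at 399, 340 and 223 CPM in RucTotal, against 212, 213 and 192 CPM in Vehicle, and IER5 at 75.8, 64.6 and 37.3 CPM in RucTotal, against 39.4, 33.3 and 29.3 CPM in Vehicle. In IER5 the lowest RucTotal sample lay inside the Vehicle range. Mean transcript length, weighted by reads, was 2742, 2711 and 3224 bases in these RucTotal samples, against 3118, 3107 and 3226 bases in Vehicle. With this length added to the block as a covariate, 1132 of all genes were called, against 4828 with the block alone. The cause of that drop was not tested. The genes with the largest differences with sorting gave 0.25 ± 0.24 (EGR1), -0.60 ± 0.53 (EGR2) and -0.03 ± 0.28 (ZFP36) with rucaparib at 24 h.

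**Figure D2:**
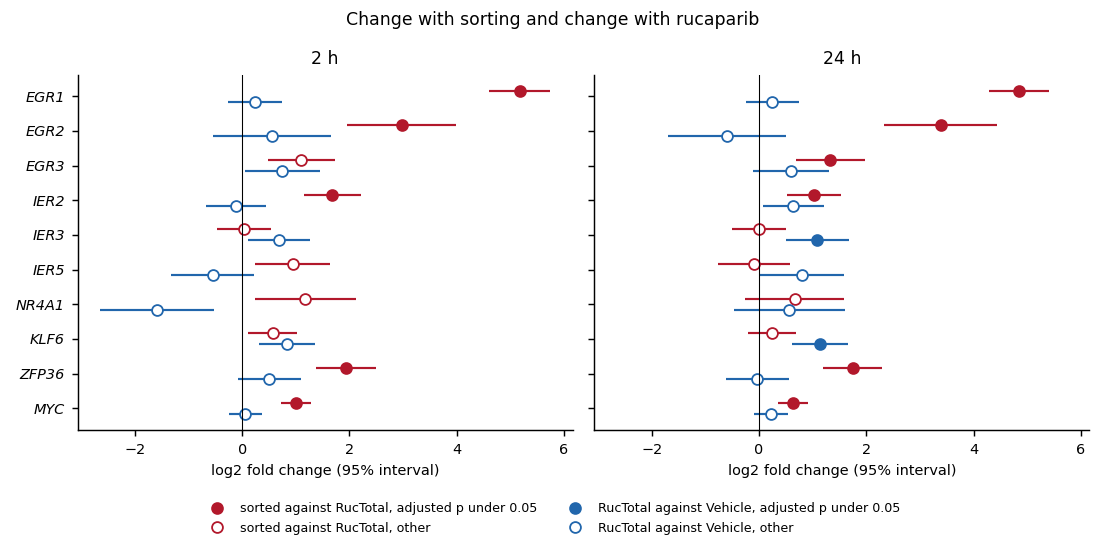
Log2 fold change of each early gene with sorting (mean of RucHigh and RucLow against RucTotal) and with rucaparib (RucTotal against Vehicle) at 2 h and 24 h, n = 3 a group; lines are 95% intervals and filled points have an adjusted p under 0.05. EGR1 lies at 5.18 and 4.85 with sorting and at 0.24 and 0.25 with rucaparib, and KLF6 and IER3 are the filled points with rucaparib, at 24 h.

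The difference with sorting was tested against the difference with rucaparib in the same fit, a comparison added after the data were seen. These 2 differences share the RucTotal samples, with opposite sign, which the fit takes into account in the SE. At 2 h EGR1 was the 1 gene of the 10 called, beside 0.0348% of all genes, with a difference larger with sorting by 4.94 ± 0.45 on the log2 scale (adjusted p = 2.26e-05). With the replicate block IER2 was called as well (1.68, adjusted p = 0.010), beside 1.43% of all genes. At 24 h EGR1 (4.60 ± 0.45, adjusted p = 2.00e-05), EGR2 (3.98 ± 0.94, adjusted p = 0.026) and ZFP36 (1.78 ± 0.49, adjusted p = 0.042) were called, 3 of 10 genes beside 5.65% of all genes, all larger with sorting. KLF6 and IER3 went the other way at 24 h, by -0.90 ± 0.40 (adjusted p = 0.17) and -1.10 ± 0.45 (adjusted p = 0.13), and did not pass. Without replicate 2 no gene of the 10 was called at 2 h, when 0 of all 20248 genes tested were, and EGR1 had an adjusted p of 0.078. At 24 h the calls of EGR2 and ZFP36 were lost without replicate 1 (adjusted p = 0.21 and 0.18) and without replicate 2 (0.55 and 0.64). Of all genes, 80 were called at 24 h without replicate 1 and 3 without replicate 2. The call of EGR2 was also lost with the length correction (0.33) and on log2(TPM + 1) (0.33). DESeq2 called EGR1, IER2, MYC and NR4A1 at 2 h, beside 0.73% of all genes.

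Vehicle cells at 24 h were set against Vehicle cells at 2 h to show how the genes differed between times without drug or sorting. None of the 10 was called, beside 0.0248% of all genes. At an unadjusted p under 0.05 there were 4, beside 17.4% of all genes, and DESeq2 called 1, NR4A1, beside 1.11%. With the replicate block 3 were called, all lower at 24 h, beside 9.41% of all genes. These were NR4A1 (-1.56, adjusted p = 0.048), IER5 (-0.85, adjusted p = 0.029) and IER2 (-0.60, adjusted p = 0.037). Among the 6 Vehicle samples all 3 genes were highest in replicate 1 at 2 h. IER2 stood at 212, 213 and 192 CPM in Vehicle at 24 h and 441, 274 and 248 CPM in Vehicle at 2 h. IER5 stood at 39.4, 33.3 and 29.3 CPM in Vehicle at 24 h and 98.6, 59.3 and 38.3 CPM in Vehicle at 2 h. Mean transcript length was 3118, 3107 and 3226 bases in Vehicle at 24 h and 2724, 2748 and 3074 bases in Vehicle at 2 h. With this length added to the block, 6 of all genes were called between these times, against 1895 with the block alone. The cause of that drop was not tested. The change with rucaparib was also compared between times. No gene of the 10 was called, beside 0.139% of all genes, while 2 had an unadjusted p under 0.05, as had 21% of all genes, and DESeq2 called 1, NR4A1, beside 4.3% of all genes. Without replicate 3 the count was 3 in place of 0, beside 15.2% of all genes in that fit. With the replicate block 1 was called, IER5 (1.19 on the log2 scale, larger at 24 h, adjusted p = 0.016), beside 18% of all genes.

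NR4A1 stood at 30.7, 26.5 and 29.9 CPM in RucTotal at 2 h, against 208, 28.5 and 25.9 CPM in Vehicle at 2 h. Replicate 1 of Vehicle stood apart, in each of its 3 libraries, and without it the log2 difference between RucTotal and Vehicle was 0.093, whereas with it the value was -1.59 ± 0.51 (adjusted p = 0.47). The other nuclear receptors of the family, named here after their values were seen, were high in the same sample. NR4A2 stood at 2.45, 2.52 and 1.75 CPM in RucTotal, against 21.9, 3.34 and 2.67 CPM in Vehicle at 2 h. NR4A3 stood at 0.390, 0.284 and 0.195 CPM in RucTotal, against 21.7, 0.357 and 0.401 CPM in Vehicle at 2 h. The next highest NR4A3 levels were 3.83 CPM in replicate 1 of RucLow at 2 h and 3.83 CPM in replicate 1 of RucLow at 24 h. COL1A1 was also highest there, at 32.8 CPM, against 6.52 to 7.28 CPM in the other 2 replicates, and its part in the level of NR4A1 was not tested. NR4A1 at 24 h stood at 39.7, 37.6 and 33.4 CPM in RucTotal, against 24.7, 24.9 and 25.4 CPM in Vehicle, with no overlap and no call (0.56 ± 0.50, adjusted p = 0.50).

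The make-up of NR4A1 by transcript was compared as well. Salmon assigned reads to several NR4A1 transcripts, among them ENST00000550557, 4837 bases long and annotated as a retained intron. At 2 h this transcript held 26.7, 34.1 and 21.003% of NR4A1 reads in RucHigh and 24.2, 35.2 and 21.8% in RucLow, against 7.38, 3.36 and 2.74% in RucTotal and 6.63, 3.38 and 3.64% in Vehicle. At 24 h it held 19.2, 36.2 and 17.8% in RucHigh and 13.5, 21.5 and 9.59% in RucLow, against 7.11, 2.44 and 1.35% in RucTotal and 4.52, 3.83 and 1.64% in Vehicle. Every sorted sample was above every unsorted sample. Replicate 1 of Vehicle at 2 h, where the gene itself was highest, had a share of 6.63%, below the 7.38% of the highest RucTotal sample. Averaged over both gates of a replicate, the share was 27.2 ± 6.78% in sorted and 4.49 ± 2.52% in RucTotal samples at 2 h (SD, n = 3 each), and 19.6 ± 8.11% in sorted and 3.63 ± 3.06% in RucTotal samples at 24 h. An exact two-sided permutation test gave p = 0.1 at each time, the smallest p that 3 against 3 allow. Between RucTotal and Vehicle the same exact test gave p = 0.9 at each time. These shares are estimates that divide reads among overlapping transcripts, and they were looked at after the levels were known.

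**Figure D3:**
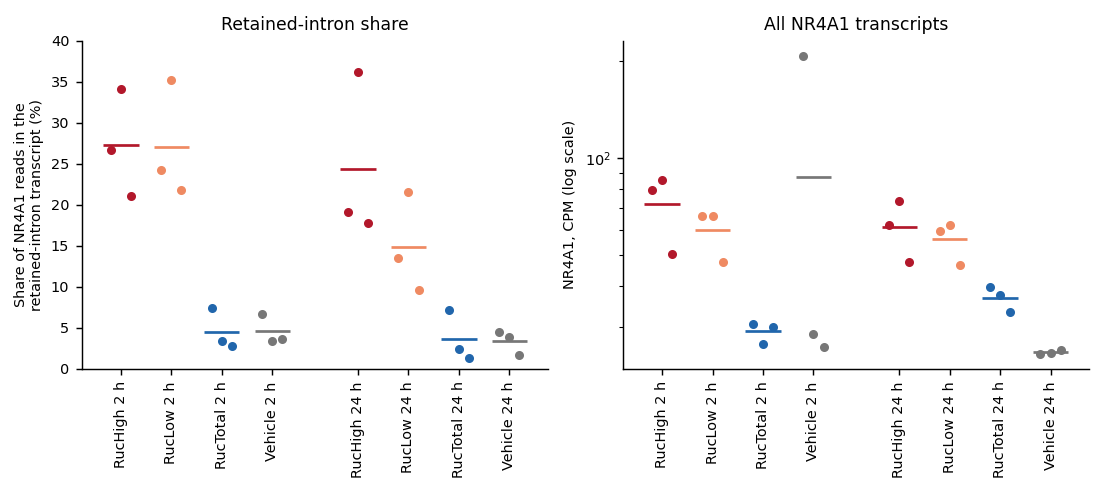
Left, share of NR4A1 reads assigned to the retained-intron transcript (%), and right, level of all NR4A1 transcripts (CPM, log axis), in the 24 summed samples; points are replicates and bars are means of 3. The share is 9.59% or more in every sorted sample and 7.38% or less in every unsorted one, and the sample at 208 CPM on the right has a share of 6.63%.

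Other early genes were called with sorting as well. Of 37 further genes of this kind, 10 rose and none fell in sorted against RucTotal cells at 2 h, with a median log2 difference of 0.77. At 24 h 13 rose and none fell, with a median of 0.65 (medians over all genes of -0.01 and 0.01). Of all 20131 genes, 249 rose and 236 fell at 2 h, and 870 rose and 1035 fell at 24 h. FOS and FOSB, which encode subunits of the AP-1 transcription factor, rose most at 2 h, by 4.29 ± 0.37 (adjusted p = 4.63e-06) and 3.75 ± 0.65 (adjusted p = 0.0080). At 24 h FOS (3.96 ± 0.37, 85.1 CPM sorted and 5.43 CPM in RucTotal) and CTGF, which encodes a matrix-associated protein and is a known target of YAP (3.61 ± 0.31, 295 CPM sorted and 24.1 CPM in RucTotal), rose most. With rucaparib none of the 37 was called at 2 h (median -0.03), while 13 had an unadjusted p under 0.05, beside 1316 of all genes, and DESeq2 called 1, NR4A2, beside 97. At 24 h 1 rose, PHLDA1 (1.04 ± 0.26, adjusted p = 0.036), beside 442 rising and 232 falling of all genes, with a median of 0.43 beside 0.03 over all genes. With the replicate block 20 of the 37 rose with sorting at 2 h, beside 14.9% of all genes called in either direction, 17 rose at 24 h, beside 24.7%, and 12 rose and 1 fell with rucaparib at 24 h, beside 24%.

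**Figure D4:**
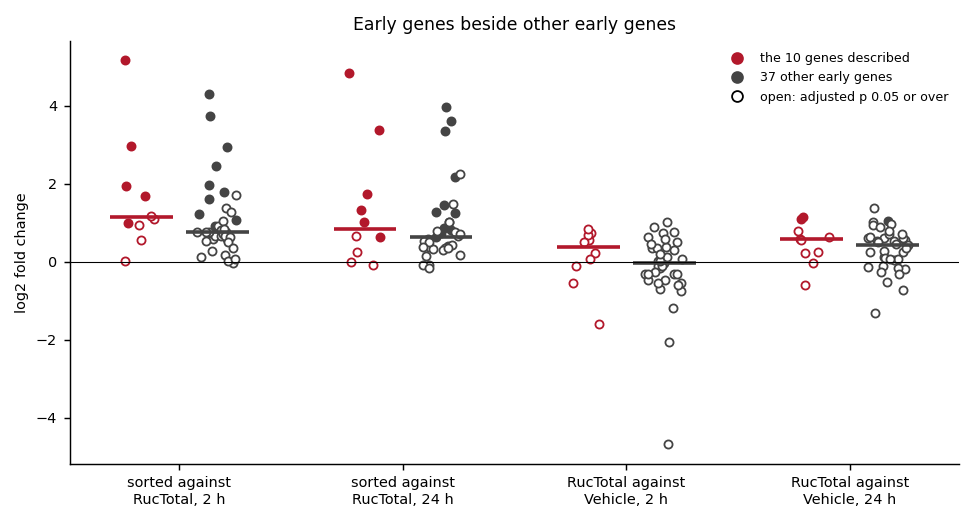
Log2 fold changes of the 10 early genes described (red) and of 37 other early genes (grey) with sorting and with rucaparib at 2 h and 24 h; each point is a gene, short bars are medians, and open points have an adjusted p of 0.05 or over. The medians of the 37 genes are 0.77 and 0.65 with sorting and -0.03 and 0.43 with rucaparib, and the lowest point, NR4A3 at -4.68 with rucaparib at 2 h, has its high value in 1 Vehicle sample.

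Regulators and partners of these genes, such as SRF, the ELK factors, NAB1 and NAB2, which bind EGR proteins, and the MAX and MXD partners of MYC, numbered 17 tested of 19. Of these, 1 was called with sorting at 2 h, CREM, a factor of the cAMP response, which fell by 0.36 ± 0.09 on the log2 scale (adjusted p = 0.039), and none was called with sorting at 24 h (2 at an unadjusted p under 0.05, and 1 by DESeq2, NAB1), with rucaparib at 2 h (3, and 1 by DESeq2, NAB2) or at 24 h (2, and 1 by DESeq2, MXD4). In these last 3 comparisons 5212, 1316 and 4935 of all 20131 genes had an unadjusted p under 0.05. DESeq2 called 3041, 97 and 2080 of all genes in them. In the main fit 485 of all genes were called with sorting at 2 h. Fitted with the replicate block, 2 of the 17 rose and 1 fell with sorting at 2 h, 1 rose and 1 fell with sorting at 24 h, and 2 rose and 2 fell with rucaparib at 24 h, in fits that called 14.9%, 24.7% and 24% of all genes. Genes that MYC is known to induce numbered 22 tested of 24. None was called with sorting at 2 h, when MYC rose. At an unadjusted p under 0.05 there were 3, beside 3635 of all 20131 genes, and DESeq2 called 1, APEX1, beside 1358. At 24 h 4 fell and none rose (median -0.39), beside 1035 falling and 870 rising of all genes. ODC1, the first enzyme of polyamine synthesis, fell by 0.93 ± 0.25 at 24 h (79.2 CPM sorted and 150 CPM in RucTotal, adjusted p = 0.028), and NPM1, a nucleolar protein, fell by 0.60 ± 0.17 (adjusted p = 0.037). Under the block 5 of the 22 fell and none rose at 2 h, beside 1673 falling and 1331 rising of all 20131 genes, and 14 fell and none rose at 24 h, beside 2795 falling and 2169 rising of all genes. With rucaparib none was called at 2 h (0 at an unadjusted p under 0.05, beside 1316 of all genes, and 0 by DESeq2, beside 97). None was called at 24 h either (10 at an unadjusted p under 0.05, beside 4935, and 3 by DESeq2, beside 2080). With the block 10 rose and 2 fell at 24 h, beside 2653 rising and 2175 falling of all genes.

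Of 17 mRNAs with AU-rich elements that ZFP36 is known to bind, 1 rose with sorting at 2 h, the chemokine CXCL2 (2.31 ± 0.54, adjusted p = 0.031). At 24 h CXCL2 (1.79 ± 0.53) and the cytokine TNF (1.37 ± 0.41) rose with sorting and PLAUR, the urokinase receptor, fell by 0.53 ± 0.15. Over all genes, sorting gave 249 rising and 236 falling at 2 h, and 870 rising and 1035 falling at 24 h. With rucaparib none was called at 2 h (7 at an unadjusted p under 0.05, beside 1316 of all genes, and 0 by DESeq2, beside 97). At 24 h 5 rose and none fell, with a median of 0.72, beside 442 rising and 232 falling of all genes. The cytokine CSF2 rose by 3.52 ± 0.54 (0.621 CPM in RucTotal and 0.0528 CPM in Vehicle) and the chemokine CXCL8 by 2.35 ± 0.42 (77.7 CPM in RucTotal and 15.3 CPM in Vehicle, adjusted p = 0.0061). Under the block 5 of the 17 rose with sorting at 2 h and none fell, 3 rose and 1 fell with sorting at 24 h, and 10 rose and none fell with rucaparib at 24 h, in the same fits. ZFP36 itself did not pass the test with rucaparib at 24 h, as given above.

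The genes with the most similar patterns were found by the root mean square difference of the 8 group means of log2 CPM, each gene centred on its own mean, among genes of at least 5 CPM on average. EGR1 was nearest to FOS (0.57) and FOSB (0.94), EGR2 to FOSB (0.34) and the mitochondrial MT-ND6 (0.47), and ZFP36 to NFKBIZ (0.21) and the mitochondrial MT-ND4L (0.28). KLF6, one of the 2 genes called with rucaparib, was nearest to TNFAIP3 (0.14) and DUSP6 (0.14), and IER3, the other, to NEURL3 (0.11) and PLK3 (0.13). NR4A1 was nearest to LIME1 (0.19) and CCDC88B (0.20), EGR3 to TNF (0.23) and NEAT1 (0.24), IER2 to LY6G5B (0.21) and ZC3H12A (0.21), IER5 to SNHG7 (0.07) and ARTN (0.14), and MYC to CCNL2 (0.10) and CSAD (0.11). These are distances over 8 group means that share depth and handling, given as a description.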

How the data were processed

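The deposited values are Salmon estimated counts, TPM and effective lengths for each transcript of each library. Tools credited to the submitters' processing notes are cutadapt 4.7, Salmon and DESeq2 1.44.0, with build GRCh38, and the Salmon version is not given. Of 257369 transcripts, 194437 took their gene from GENCODE release 29 and 11524 from its HGNC metadata, which adds 4 haplotype transcripts to IER3. The other 51408 transcripts (7.11 to 8.96% of the reads of a library) were left out.

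For each gene the estimated counts of its transcripts and of the 3 libraries of a replicate were added up and rounded, and the 24 samples were fitted together with edgeR 4.0.16 (filterByExpr, TMM, quasi-likelihood test) in R 4.3.3, without a block. No 2 of the 72 files were identical. RucHigh and RucLow of a replicate were fitted as separate samples. Percentages of transcripts were summed from estimated counts, and TPM was used to compare genes and in 1 alternative. The main fit did not pair same-numbered samples, while the fits with the replicate block and the counts of replicates with a difference did. The block was tried because the study's reporting summary places the replicates of cell sorting experiments on different days, without naming these libraries. Deviations of same-numbered samples from group means correlated with a median of 0.29 (lowest -0.06), against -0.12 between other numbers. Alternatives were the replicate block, DESeq2 1.42.0, its size factors, other filters, an offset for effective length, mean transcript length as covariate, limma 3.58.1 on log2(TPM + 1), fewer libraries, only the groups compared and each replicate left out. The test of sorting against rucaparib and the fit without 1 Vehicle sample were added after the data were seen. The genes and lists were chosen with earlier results of these data known. The named genes are all 10 members, up to 2 genes of each list with the largest rise and fall among those called, and the 2 nearest patterns of each member.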

Additional observations from a re-analysis of the deposited data

Results flagged for a closer look

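In 3 of the groups of 9 libraries the highest library of a gene stood apart from the other 8 by Dixon's test at the 95% level, among 10 genes and 8 groups examined (80 sets of 9 libraries in all), where chance marks about 1 set in 20. EGR1 was at 34.9 CPM in library 2 of replicate 1 of Vehicle at 2 h, with the next library at 16.4 CPM. EGR2 was at 0.535 CPM in the same library, with the next at 0.280 CPM. EGR2 was at 4.57 CPM in library 3 of replicate 2 of RucHigh at 24 h, with the next at 2.71 CPM. The libraries of a replicate were added before the tests, and whether they are technical repeats of 1 RNA or separate wells is not given in the labels.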

How the results depend on the processing

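Of 882 alternative log2 differences of single genes under 14 settings, 785 kept their direction and side of the threshold. Another 37 lost a call, 36 gained one and 24 changed sign, none of the 24 being called. The 882 covered all 10 genes for sorting and for rucaparib at each time, but only some chosen genes in the other comparisons. The count of the 10 genes called with sorting at 2 h, 5, stood beside 485 of all genes. It was 8 with DESeq2 (1358 of all genes), 8 with mean transcript length added as covariate to the block (4796), and 1 to 7 with samples left out (2 to 1013). The count at 24 h, 6, stood beside 1905 of all genes. It was 3 with only the groups compared (230 of all genes) and 1 to 7 with samples left out. At each time the lowest count of the 10 was without replicate 2 and the highest without replicate 1 of Vehicle at 2 h. At 24 h those 2 fits called 5 and 2646 of all genes. With rucaparib at 24 h the count of 2, beside 674 of all genes, was 4 with the replicate block (4828 of all genes). It was 0 with the length offset (120), 0 with only the groups compared (9), 0 on log2(TPM + 1) (75) and 0 to 2 with replicates left out (3 to 2788). For Vehicle over time the count of 0, beside 5 of all genes, was 3 with the block (1895 of all genes), 1 with every gene kept (31) and 1 with DESeq2 (224). For rucaparib between times the 0, beside 28 of all genes, was 1 with the block (3630 of all genes) and 1 with DESeq2 (866). It was 0 to 3 with replicates left out (3 without replicate 3, beside 3140 of all genes). For sorting minus rucaparib at 2 h the 1, beside 7 of all genes, was 2 with the block (287 of all genes) and 2 with every gene kept (21). It was 5 with the length covariate and block (2390), 4 with DESeq2 (147) and 0 to 1 with replicates left out (0 to 5). At 24 h the 3, beside 1137 of all genes, was 1 to 3 with replicates left out (3 to 3655 of all genes). The block changed no other call of the 10 genes than those given.

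Most signs that changed were of values near 0, the exceptions being NR4A1 (-1.59) and EGR2 (-0.60). With sorting at 24 h IER3 was 0.013 with the filter at 1 CPM, 0.20 with the length offset, 0.15 with the length covariate and 0.25 on log2(TPM + 1), and IER5 was 0.18, 0.19 and 0.28 under the last 3. With rucaparib IER2 at 2 h was 0.029 with the length offset and 0.010 on log2(TPM + 1), and at 24 h EGR1 was -0.038 and MYC -0.039 on log2(TPM + 1), EGR2 0.33 with the offset and 0.023 on log2(TPM + 1), and ZFP36 0.20 with the covariate. With samples left out, IER3 was -0.28 to 0.34 with sorting at 2 h and -0.14 to 0.16 at 24 h, IER5 was -0.17 to 0.022 with sorting at 24 h, IER2 was -0.31 to 0.19, NR4A1 -2.07 to 0.093 and MYC -0.13 to 0.23 with rucaparib at 2 h, ZFP36 was -0.16 to 0.023 with rucaparib at 24 h, and EGR1 was -0.11 to 0.044 between RucHigh and RucLow at 2 h. Over all genes, calls with sorting at 2 h ranged from 2 (without replicate 2) to 4796 (length covariate and block) around 485, and at 24 h from 5 to 4964 around 1905. With rucaparib at 24 h they ranged from 3 to 4828 around 674. The causes were not tested. EGR2 and EGR3 rest on the fewest reads, and the scale log2(TPM + 1) gives smaller differences for such genes, 0.84 for EGR2 with sorting at 2 h.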
